A study of Mus musculus with 11 samples.

Results

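The 8 genes described here, Stra8, Dazl, Ddx4, Sycp3, Sycp1, Mael, Asz1 and Hormad1, are mouse germline genes picked by name out of 29979 gene names that were tested in the bulk table or had a column in a single-cell table. They were picked with earlier results of these data known, so their own differences are described without a test. The study asked how soft agarose microgels change mouse embryonic stem (ES) cells, and what plakoglobin (Jup), a catenin of cell junctions, does to them. Bulk RNA of cells titled wild type, of the line labelled Rex1GFPd2, was sequenced by Smart-seq2. About 1000 cells were used per library, in 3 libraries from microgels and 3 from tissue-culture plastic. All 6 were in 2i/LIF, a medium with inhibitors of MEK and GSK3 plus the cytokine LIF. Single cells were counted by inDrop, a droplet method that tags each captured transcript with a unique molecular identifier (UMI), in 1 library per condition: wild-type E14 cells on plastic in either serum/LIF or 2i/LIF, E14 cells embedded in microgels with serum/LIF, and the lines labelled JupHigh and JupLow on plastic with serum/LIF. Both Jup lines carry plakoglobin under the constitutive CAG promoter, and the labels do not name their parent line or the number of clones. Jup itself was at 37.9 CPM (the UMI count of a gene scaled to the customary common library total, with a 95% Poisson interval of 31.1 to 45.7) in the library labelled JupLow and 47.8 CPM (41.5 to 54.8) in the one labelled JupHigh, against 36.7 CPM (28.8 to 46.0) in wild type serum/LIF, so these counts do not separate the lines clearly by their labels.

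Germline genes are kept silent in most somatic cells, in large part by DNA methylation of their promoters and by repressor complexes such as PRC1.6, which holds E2F6 and the MGA and MAX pair. ES cells in 2i/LIF carry little DNA methylation compared with cells in serum/LIF and transcribe some of these genes at a low level without becoming germ cells. STRA8, induced by retinoic acid, starts the meiotic programme, DAZL binds germ cell messenger RNAs and licenses entry into meiosis, and DDX4 is an RNA helicase of the germ granule. SYCP1 and SYCP3 build the synaptonemal complex between paired chromosomes and HORMAD1 marks the axes that have not yet paired, while MAEL and ASZ1 act in the piRNA pathway that silences transposons.

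All 8 are annotated as protein-coding genes in GRCm38 (GENCODE M21). Stra8 spans chr6:34920163-34939344, Dazl chr17:50279395-50293636, Ddx4 chr13:112598333-112652475, Hormad1 chr3:95559677-95587671, Sycp1 chr3:102818499-102936100, Mael chr1:166201201-166238747 and Asz1 chr6:18050964-18109061. Sycp3, at chr10:88459569-88473236, overlaps exons of Chpt1, a gene on the opposite strand, and 3 annotated pseudogenes lie within the span of Sycp1. Whether the counting used strand is not given in the sources used here, so reads of Sycp3 and Chpt1 cannot be told apart with certainty.

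The sequences upstream of 4 of the genes are shown, a choice made with their values known. In bulk, Stra8 and Dazl were lower in gel, and Hormad1 overlapped between gel and plastic. Ddx4, with few reads and not tested, also lay lower in every gel library. In single cells Ddx4 was lower in 2i/LIF than in wild type serum/LIF. Capitals mark 3 motifs searched on both strands in the 250 bases before each RefSeq start (GRCm38.p6): GGCGGGA, the core of the E2F6 site, CACGTG, the E-box that MGA and MAX bind, and AGGTCA, a nuclear receptor half-site of the kind retinoic acid receptors bind. For Stra8 and Ddx4, whose windows lie partly or wholly in annotated exons of the same gene in GENCODE M21, only the 30 bases around each motif are given.

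Hormad1, upstream, chr3:95559427-95559676, plus strand: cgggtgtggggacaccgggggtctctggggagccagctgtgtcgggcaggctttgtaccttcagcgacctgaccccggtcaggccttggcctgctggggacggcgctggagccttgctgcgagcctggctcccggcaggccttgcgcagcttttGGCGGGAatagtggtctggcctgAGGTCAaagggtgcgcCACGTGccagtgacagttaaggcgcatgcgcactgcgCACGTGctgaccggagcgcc
Dazl, upstream outside exons, chr17:50293637-50293870, minus strand: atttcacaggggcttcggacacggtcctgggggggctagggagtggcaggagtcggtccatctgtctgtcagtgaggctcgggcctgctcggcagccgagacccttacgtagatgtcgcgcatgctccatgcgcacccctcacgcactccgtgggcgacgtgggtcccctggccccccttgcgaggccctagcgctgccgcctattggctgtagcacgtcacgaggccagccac
Stra8, distal motif, chr6:34920742-34920771, plus strand: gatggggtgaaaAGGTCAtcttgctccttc
Stra8, proximal motif, chr6:34920898-34920927, plus strand: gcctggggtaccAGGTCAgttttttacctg
Ddx4, distal motif, chr13:112652430-112652459, minus strand: gtccgtccatggGGCGGGAagtcgcgcgcc
Ddx4, proximal motif, chr13:112652322-112652351, minus strand: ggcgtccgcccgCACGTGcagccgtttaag

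In these windows Hormad1 held GGCGGGA once, 96 bases before the start, and CACGTG 2 times, 57 and 20 bases before it, with 1 AGGTCA between them and the GGCGGGA at 73 bases. Ddx4 held GGCGGGA at 137 and CACGTG at 29 bases before the start. Mael had both motifs as well, Sycp3 had CACGTG at 64 and 43 bases and AGGTCA at 213, and Sycp1 had CACGTG at 94 bases. Stra8 held neither GGCGGGA nor CACGTG but had AGGTCA at 194 and 38 bases, and Dazl and Asz1 held none of the 3. Over the 27025 RefSeq promoter windows of the same length, 9.76% held GGCGGGA, 6.05% CACGTG, 13.8% AGGTCA and 0.899% both of the first 2. Over the windows of 65 other germline genes, the shares were 12.3%, 23.1%, 13.8% and 3.08% in the same order. CpG counts ran from 5 in Stra8 to 31 in Ddx4, with 20 in Dazl and 19 in Hormad1. The median was 6 over all windows and 13 over those of the 65 other germline genes. These matches describe letters only and say nothing of which factor binds.

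In the bulk libraries Stra8 was the member with the largest difference between gel and plastic. Its normalised read count (reads divided by a factor per library) was 56.5, 54.8 and 59.2 in the 3 plastic libraries, from 136, 140 and 39 reads. In gel it was 2.26, 7.37 and 2.75, from 2, 6 and 2 reads. Every plastic library lay far above every gel library, at a mean of 56.8 ± 2.23 against 4.12 ± 2.82 (SD, n = 3 each). The log2 fold change of gel over plastic was -3.79 (SE 0.36), the fourth lowest of the 7878 genes tested, where ranks run over log2(value + 0.5), a scale that understates the change of low genes. The gel value rests on 10 reads in all, and Stra8 passed the filter on low reads through its plastic libraries alone.

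Dazl was lower in gel by about a factor of 2. Its normalised read count was 84.4, 61.0 and 57.7 in plastic, from 203, 156 and 38 reads, and 30.5, 33.2 and 38.5 in gel, from 27, 27 and 28 reads. The groups did not overlap, at 67.7 ± 14.5 against 34.0 ± 4.07 (SD, n = 3), and the log2 fold change was -0.97 (SE 0.19), rank 331 from the lowest. Ddx4 was near the limit of counting, with 6, 7 and 2 reads in plastic against 1, 1 and 0 in gel, and was not tested. Its plastic values of 2.49 to 3.04 all lay above its gel values of 0 to 1.23.

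The synaptonemal and axis genes differed less. Hormad1 was at 28.3, 37.2 and 22.8 in plastic and 15.8, 23.3 and 23.4 in gel, so that 1 plastic library lay within the gel range. Its log2 fold change was -0.48 (SE 0.26). Sycp3 had 6, 8 and 2 reads in plastic and 2, 1 and 3 in gel, and Mael had 5, 10 and 0 against 3, 2 and 0, so both overlapped between the groups and neither passed the filter on low reads. Sycp1 and Asz1 have no row in the bulk table. Of the 3 members that passed the filter, 2 (Stra8 and Dazl) had groups that did not overlap, as did 49.5% of all genes that passed it; since the members were chosen with these values known, nothing is read from that count. The ES cell markers, 8 of 8 listed, summed to 7787 to 7995 in gel and 5898 to 6757 on plastic, but most of this was Dppa5a (5545 ± 76.4 in gel and 3879 ± 565 on plastic), and the other 7 summed to 2249 to 2374 in gel and 2495 to 2667 on plastic. By limma 4 of the 8 were higher in gel (Dppa5a, Pou5f1, Sox2 and Utf1) and 2 lower (Nanog and Zfp42). The 1 fibroblast marker of 9 with a row stayed at or below 4.55, and the part of these in the members' values was not tested. In these bulk libraries fewer cells expressing a gene and less RNA of it per cell cannot be told apart.

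**Figure D1:**
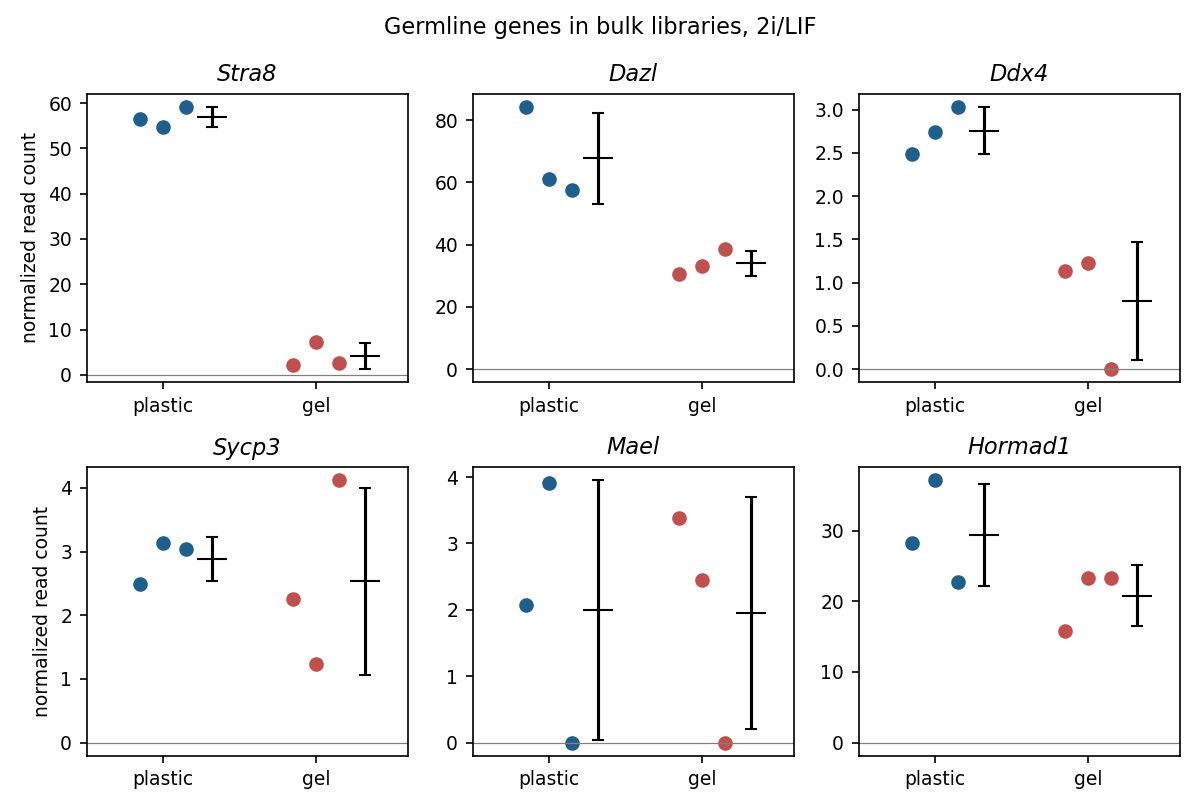
Normalised read count (y axis, separate linear scale for each gene) of the 6 members listed in the bulk table, in the plastic and gel libraries in 2i/LIF; coloured points are libraries, and the black bar shows mean ± SD of 3. Stra8 lies between 54.8 and 59.2 on plastic and between 2.26 and 7.37 in gel, while Hormad1, Sycp3 and Mael overlap.

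The other genes of the germline programme did not all follow. The 3 lists by function, without the members, held 79 genes, of which 41 had a row and 18 were tested. The gene lists, too, were chosen with earlier results of these data known. Their counts and p-values, here and below, are therefore not read as independent of those results. limma called 7 lower in gel (Sohlh2, Fkbp6, Tex19.1, Xlr3a, Stk31, Tdrd12 and Trip13) and 3 higher (Brca2, Syce2 and Rpl10l), and the other 8 were not called, at an adjusted p threshold of 0.05. Over all 7878 genes tested, 18.6% were called lower and 18.3% higher, 36.9% in all, so the 3 higher genes of 18 are near the share over all genes. The median log2 fold change of the 18 was -0.41, beside -0.022 over all genes tested. Rpl10l is a near copy of Rpl10 and Xlr3a belongs to a family of close copies, so their read counts are uncertain.

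Most of the tested piRNA and germ granule genes were lower in gel. Of the 21 genes listed, 11 had a row, 5 were tested and 4 were called lower, beside 18.6% of all genes. The median log2 fold change over the 5 was -0.93. With 5 genes of a list chosen with earlier results known, this contrast is a description. Fkbp6, a co-chaperone of piRNA loading, fell from 72.4 ± 2.45 on plastic to 30.1 ± 1.27 in gel (log2 fold change -1.25, SE 0.17, limma with Benjamini-Hochberg adjusted p = 3.05e-05). Tex19.1, which restrains transposons in germ and ES cells, fell from 163 ± 7.34 to 81.9 ± 21.5 (-1.02, SE 0.16, adjusted p = 0.000127). Tdrd12, a Tudor protein of the piRNA pathway, fell by 0.64 on the log2 scale (adjusted p = 0.00683), and stood at -0.38 without gel replicate 3. Stk31, a Tudor kinase of germ cells, was called at -0.93 with an adjusted p of 0.0366, but was not called in 7 of the 13 alternatives that gave it a value, and stood at -0.48 (adjusted p = 0.174) without gel replicate 1. Rnf17, the fifth, was at -0.23 and not called.

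Sohlh2, a transcription factor of early germ cells, had the largest fold change of the 18 tested genes, from 40.7 ± 7.85 on plastic to 14.8 ± 6.98 in gel (-1.55, SE 0.33, adjusted p = 0.00125). Among the meiotic genes Trip13, the ATPase that removes HORMAD proteins from chromosome axes, fell by 0.56 on the log2 scale (adjusted p = 0.00478). Syce2, a central element of the synaptonemal complex, rose by 0.54 (adjusted p = 0.00977), and Brca2, a recombination and DNA repair gene of dividing cells too, rose by 0.58 (adjusted p = 0.0237), but was not called in 4 of its 14 alternatives: by DESeq2 (adjusted p = 0.0794) and by limma without gel replicate 3 (0.0831), plastic replicate 2 (0.0837) or plastic replicate 3 (0.064). Leaving out plastic replicate 3 left 1 of the 3 higher genes called. Of the 8 genes not called, 4 had groups that did not overlap: Syce1 (-0.80), Nanos3 (-0.69) and Tuba3a (-0.27) were below plastic in every gel library, and Hsf2bp (0.23) was above it. Over all 7878 genes tested, called or not, 3897 (49.5%) had groups that did not overlap, 2811 of them called. Nothing is read from the count of 4.

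**Figure D2:**
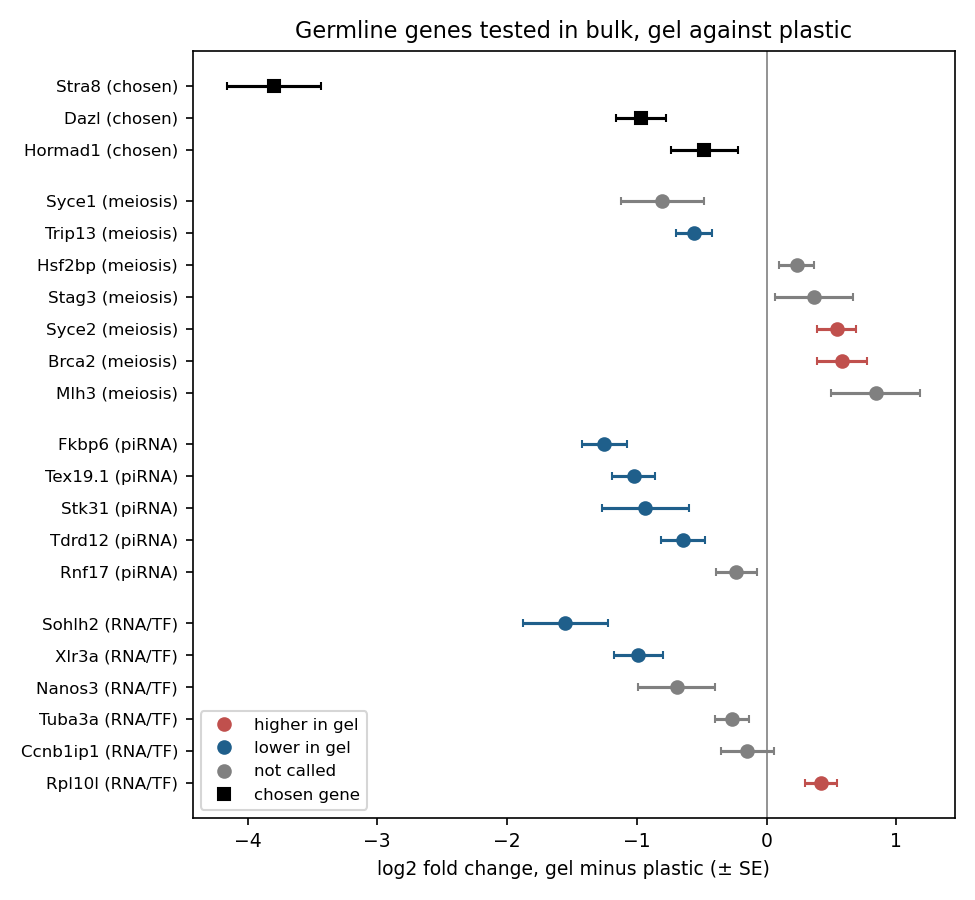
log2 fold change of gel over plastic (x axis, ± SE, 3 libraries each) for the 3 members tested (black squares) and the 18 tested genes of the other germline lists, coloured by call. Stra8 stands at -3.79, beyond all the others, and 4 of the 5 piRNA and germ granule genes were called lower.

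Genes that set the state of germline promoters moved both ways. Of 24 tested repressor genes, 7 were called higher in gel and 4 lower, beside 18.3% and 18.6% of all genes tested. The 6 highest were Rybp (1.28), a subunit of Polycomb complexes including PRC1.6, Atf7ip (1.26), Trim28 (0.97) and Ehmt2 (0.79) of the histone H3 lysine 9 methylation system, and Uhrf1 (0.77) and Dnmt1 (0.73), which maintain DNA methylation, with limma adjusted p from 1.59e-06 for Trim28 to 0.0112 for Ehmt2. The lower ones were Cbx3 (-0.76), Hdac2 (-0.70), Tfdp1 (-0.47) and Zfp42 (-0.32). Cbx3, Hdac2 and Tfdp1 are, like Rybp, known as subunits of PRC1.6, so that called genes of this complex lay on both sides. Its subunits Mga, Max, Pcgf6, L3mbtl2 and E2f6 were not called, at log2 fold changes of 0.38, 0.61, -0.31, -0.01 and -0.70. Tet1, a dioxygenase that oxidises methylated cytosine, was higher in gel at 0.76 (adjusted p = 0.00028).

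Of the retinoic acid genes 14 of 22 had a row, but only Cdx1, a target of the pathway, had enough reads to be tested, and it was higher in gel (1.09, adjusted p = 0.0176). The primordial germ cell list split as well. Klf4 (1.84), Esrrb (1.55) and Kit (1.02), which ES cells express too, were called higher in gel. Dppa3 (-0.68), a protector of methylation in the early embryo, and Elf3 (-0.51) were called lower, and the other 5 tested were not called.

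By the pattern over the 6 bulk libraries, the genes most like Stra8 were Uba2, Gmps and Actr3b (Pearson r from 0.998 to 0.999). Those most like Dazl were Tfdp1, Arl6ip1 and Atp5b (0.989 to 0.991), and those most like Hormad1 were Clk4, Fbxo15 and Faap24 (0.981 to 0.984). With 6 libraries in 2 groups, these rankings are a description.

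The single-cell library in 2i/LIF on plastic held far less Stra8 than the bulk plastic libraries. In 2i/LIF on plastic, 4 cells of 2889 had 1 UMI of Stra8 each, 0.483 CPM (95% Poisson interval 0.132 to 1.24). In wild type serum/LIF it had 0 UMIs among 2017950, which allows up to 1.49 CPM at a floor of 3 counts, and it has no column in the gel, JupLow and JupHigh tables. On the same medium and substrate the bulk libraries, with reads scaled to the same total, held Stra8 at 54.2 to 61.2, Dazl at 59.6 to 84.9 and Hormad1 at 23.5 to 36.8, against 0.483, 5.19 and 26.0 CPM in single cells. The assays differ in cell line and chemistry, and the part of these in the gaps was not tested.

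Hormad1, the marker of unpaired chromosome axes, had the most UMIs of the members in wild type serum/LIF, 2i/LIF and both Jup lines. It had 38 UMIs in wild type serum/LIF, 215 in 2i/LIF, 2 in gel, 47 in JupLow and 79 in JupHigh, or 18.8, 26.0, 8.47, 16.3 and 18.3 CPM. The interval in 2i/LIF, 22.6 to 29.7 CPM, lay above that in JupLow, which ended at 21.7, and met those of the other 3 libraries. Dazl had 11, 43, 2, 8 and 19 UMIs in the same order (5.45, 5.19, 8.47, 2.78 and 4.41 CPM), and all its intervals overlapped.

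Ddx4, Sycp1 and Mael were lower in 2i/LIF than in wild type serum/LIF. Ddx4 had 23 UMIs in wild type serum/LIF (11.4 CPM, interval 7.23 to 17.1), 31 in JupLow (10.8 CPM), 31 in JupHigh (7.19 CPM, 4.89 to 10.2) and 14 in 2i/LIF (1.69 CPM, 0.924 to 2.84). All 3 serum libraries on plastic lay above 2i/LIF with intervals that did not meet. The log2 ratio of 2i/LIF over wild type serum/LIF was -2.75 (exact interval -3.83 to -1.73).

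Sycp1 had 18 UMIs in wild type serum/LIF (8.92 CPM) and 5 in 2i/LIF (0.604 CPM), a log2 ratio of -3.89 (-5.67 to -2.40). It was intermediate in the Jup lines, at 2.78 CPM from 8 UMIs in JupLow and 1.39 CPM from 6 UMIs in JupHigh, below wild type serum/LIF by -1.68 (-3.09 to -0.41) and -2.68 (-4.30 to -1.29) on the log2 scale. Mael had 9 UMIs (4.46 CPM) in wild type serum/LIF and 6 (0.724 CPM) in 2i/LIF, a log2 ratio of -2.62 (-4.39 to -0.97). It stood at 5.21 CPM in JupLow and 3.02 CPM in JupHigh.

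**Figure D3:**
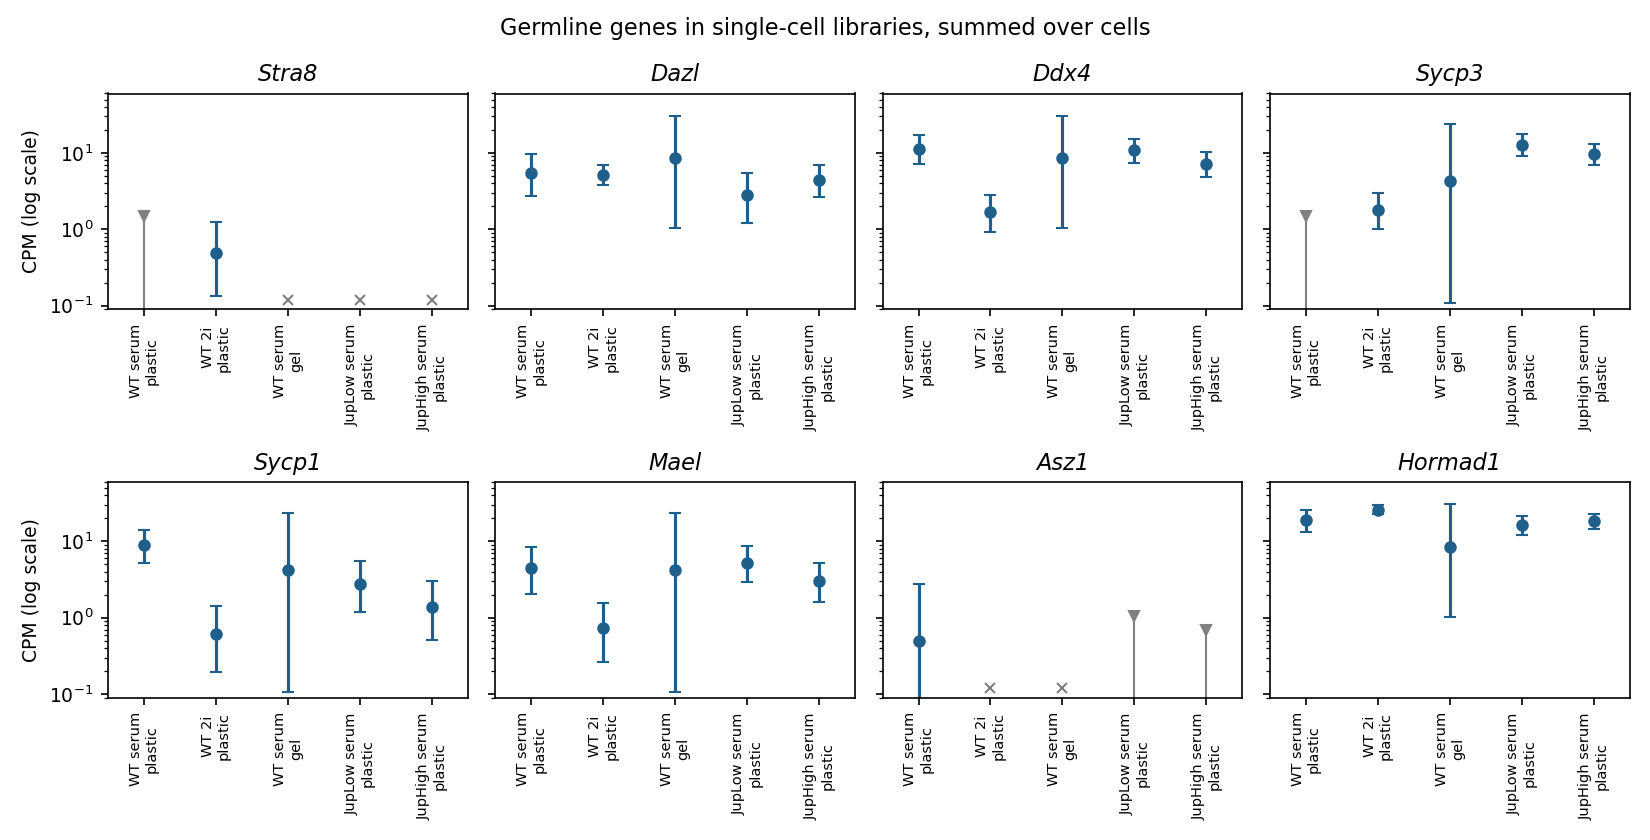
CPM (y axis, log scale) of the 8 members in the 5 single-cell libraries, summed over cells; bars are 95% Poisson intervals, grey triangles give the level of 3 counts where 0 UMIs were counted, and a cross marks a gene with no column in the table. Ddx4 stands at 1.69 in 2i/LIF and between 7.19 and 11.4 in the 3 serum/LIF libraries on plastic, while Dazl intervals overlap throughout.

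For Dazl the log2 ratio of 2i/LIF over wild type serum/LIF was -0.07 (-1.05 to 1.03) and for Hormad1 it was 0.46 (-0.04 to 1.00). Of the 4 members with at least 20 UMIs over both libraries, 2 were at least 2-fold lower in 2i/LIF and 0 higher by that much. Of the 13555 genes with as many UMIs, 32.8% were 2-fold apart in either direction and 18.6% were lower. The members were chosen with earlier results of these data known, so nothing is read from their count. Cells with a UMI of the endoderm markers Gata4, Gata6, Sox17, Sox7, Foxa2, Dab2 or Pdgfra were also left out, a choice made after seeing the data. The CPM of Ddx4 in wild type serum/LIF was then 11.3 and that of Sycp1 9.48. Endoderm cells without a counted UMI of these genes stayed in, so this cannot give the part of endoderm cells. The cells left out made up 15.6% of cells in wild type serum/LIF and 1.04% in 2i/LIF. All 10 primitive endoderm markers had UMIs in wild type serum/LIF, at 1815 CPM in sum, against 9 of 10 in 2i/LIF at 247 CPM. Other marker sums differed in the same pair: genes of primed cells stood at 190 CPM in 2i/LIF against 1045 in wild type serum/LIF, fibroblast genes at 3.50 against 40.1, 2-cell-like genes at 0.724 against 34.2 and ES cell genes at 3181 against 1991. A gene without a column counted as 0 in these sums. Columns in 2i/LIF and wild type serum/LIF were 7 and 8 of 9 for primed and 5 and 9 of 9 for fibroblast genes. They were 4 and 10 of 14 for 2-cell-like and 8 and 7 of 8 for ES cell genes. The part of these lists in the members' values was not tested.

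Sycp3 had 0 UMIs in wild type serum/LIF, 15 in 2i/LIF (1.81 CPM), 37 in JupLow (12.9 CPM, 9.05 to 17.7), 42 in JupHigh (9.74 CPM, 7.02 to 13.2) and 1 in gel. Against the 0 UMIs of wild type serum/LIF, the exact 95% interval of the log2 ratio began at 2.74 for JupLow and at 2.35 for JupHigh. Low counts of overlapping genes were more frequent in the wild type serum/LIF table: of 2203 genes with exons that overlap another gene, 7.04% were at least 8-fold below JupLow, against 1.81% of 4247 others, while in the other 3 tables at most 2.50% of such genes were. The part of this counting in the 0 UMIs of Sycp3 was not tested. Without that table, Sycp3 was lower in 2i/LIF than in both Jup lines, in intervals that did not meet. Chpt1, the overlapping gene on the opposite strand, lay the other way, at 34.2 CPM in 2i/LIF against 14.6 in JupLow and 16.7 in JupHigh, and the part of its reads in the counts of Sycp3 was not tested. JupHigh stood above 2i/LIF for Sycp3 by 2.43 (1.55 to 3.38), for Ddx4 by 2.09 (1.14 to 3.11) and for Mael by 2.06 (0.56 to 3.74) on the log2 scale, and for Hormad1 the log2 ratio was -0.50 (-0.89 to -0.12). The intervals for Sycp1 (1.21, -0.77 to 3.26, from 6 UMIs against 5) and Dazl (-0.24, -1.10 to 0.57) included 0. Each Jup library differs from wild type 2i/LIF in medium and in line, so the parts of these cannot be told apart. Of the 4 members with at least 20 UMIs over JupHigh and 2i/LIF, 2 were at least 2-fold higher in JupHigh and 0 lower, beside 7.08% and 8.78% of all such genes. The 2 were Ddx4 and Sycp3, with 14 and 15 UMIs in 2i/LIF, so they reached 20 only with those of JupHigh. Since the members were chosen with earlier results of these data known, nothing is read from that count.

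Between JupHigh and JupLow the counting interval of the ratio included 0 for each of the 6 members compared. The log2 ratios were 0.67 for Dazl (-0.59 to 2.07), -0.58 for Ddx4 (-1.35 to 0.18), -0.40 for Sycp3 (-1.07 to 0.28), -1.0 for Sycp1 (-2.80 to 0.72), -0.79 for Mael (-1.98 to 0.38) and 0.17 for Hormad1 (-0.37 to 0.72). None of the 5 members with at least 20 UMIs reached 2-fold, where 15.9% of all such genes did, and nothing is read from this count either. The intervals still allow differences of 2-fold for Dazl, Ddx4, Sycp3, Sycp1 and Mael. Asz1 had 1 UMI in wild type serum/LIF, 0 in both Jup lines and no column in the 2i/LIF and gel tables. The gel table ends inside a row and holds barcodes from only part of the range, and with 112 cells it gave 1 or 2 UMIs for each of the 6 members it lists.

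**Figure D4:**
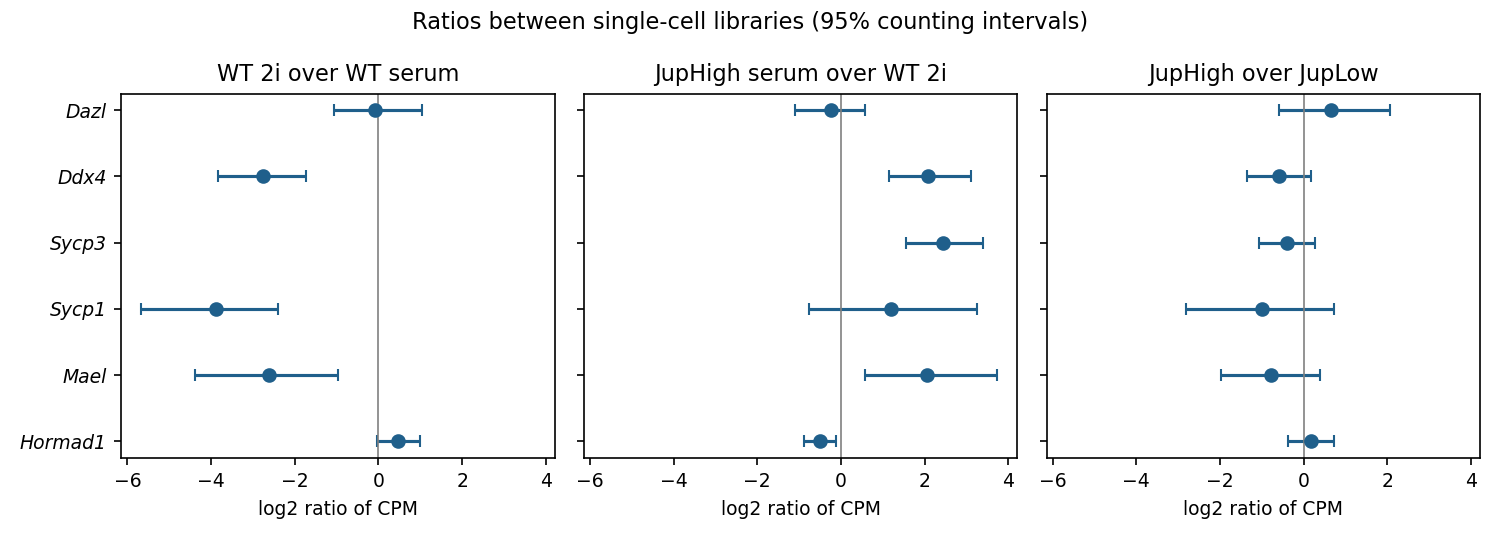
log2 ratio of CPM (x axis) with exact 95% intervals for counting error, for 6 members in 3 pairs of single-cell libraries; Sycp3 has no ratio in the first pair because it had 0 UMIs in serum/LIF. Ddx4 lies at -2.75 for 2i/LIF over serum/LIF and at 2.09 for JupHigh over 2i/LIF, and all intervals of JupHigh over JupLow include 0.

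A UMI of any member was found in 87 of 725 cells in wild type serum/LIF (12%, exact binomial interval 9.72% to 14.6%), 261 of 2889 in 2i/LIF (9.03%), 9 of 112 in gel (8.04%), 135 of 1200 in JupLow (11.3%, 9.52% to 13.2%) and 172 of 2153 in JupHigh (7.99%, 6.88% to 9.22%). Before thinning, the interval of JupHigh thus lay below those of JupLow and wild type serum/LIF. Thinned to 1000 UMIs per cell, the shares were 4.69%, 3.77%, 4.46%, 4.33% and 4.13%, and their intervals all overlapped. Thinned to 2000 UMIs, in fewer cells, they were 8.41%, 6.08%, 11.1%, 10.4% and 7.93%, and the interval of JupLow (8.19% to 12.9%) lay above that of 2i/LIF (4.98% to 7.34%), so the order depends on the thinning. Cells with UMIs of 2 members numbered 6, 9, 0, 4 and 12, and 0 cells had 3. Nearly all positive cells held a single UMI. In 2i/LIF 17 cells held 2 UMIs of Hormad1 and 4 held more, and 1 cell held 5 UMIs of Dazl.

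Ddx4 was found in 2.90% of wild type serum/LIF cells and 0.485% of 2i/LIF cells before thinning, and in 0.690% and 0.173% after it, where the intervals met. Thinned to 2000 UMIs, with fewer cells deep enough, it was found in 1.64% of 428 cells (0.660% to 3.34%) and 0.241% of 1662 cells (0.0656% to 0.615%), where they did not. Barcodes under 500 UMIs, too small to be counted as cells, carried these genes too: in wild type serum/LIF Ddx4 was at 10.6 CPM there against 11.4 in cells, Hormad1 at 14.7 against 18.8, Dazl at 5.53 against 5.45, Sycp1 at 13.4 against 8.92 and Mael at 8.76 against 4.46. The share of cells with a UMI was therefore not read as a share of expressing cells. How much of the CPM of cells, and of the ratios of 2i/LIF over serum/LIF, came from RNA outside cells was not tested. In JupLow, Sycp3 was at 16.3 CPM in such barcodes against 12.9 in cells, Ddx4 at 7.06 against 10.8 and Hormad1 at 24.5 against 16.3. In JupHigh they were at 8.63 against 9.74, 3.45 against 7.19 and 20.7 against 18.3, from only 5, 2 and 12 UMIs in the small barcodes. The 2i/LIF table holds 1 such barcode, so the same comparison was not made in it.

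Other germline genes lay on both sides in 2i/LIF against serum/LIF, while in JupHigh over JupLow most had ratios above 0. Of the 44 with at least 20 UMIs over 2i/LIF and wild type serum/LIF, 15 were at least 2-fold higher in 2i/LIF and 10 lower, beside 14.2% and 18.6% of all such genes. As given above, low counts of genes with overlapping exons were more frequent in the wild type serum/LIF table. The part of this in these counts, and in other ratios and sums against that table, was not tested. The largest ratios downwards were those of Tdrkh (-3.70), Tex11 (-2.40), Msh4 (-2.17), Tdrd5 (-1.83) and Boll (-1.82), with roles in piRNA processing, meiotic recombination and germ cell RNA binding. Upwards they were Mcmdc2, whose exons overlap another gene (26 UMIs against 0, an interval that begins at 0.68), Spo11, the nuclease that starts meiotic recombination (3.39), Rpl10l (3.05), Tuba3a (2.32) and Xlr3a (1.72). JupHigh over JupLow had 13 of 39 at least 2-fold higher and 3 lower, beside 4.76% and 11.1% of all genes, and a median log2 ratio of 0.58 (quartiles 0.09 to 1.20) beside -0.12. Xlr3a (3.12), Rhox13 (1.84), Tex11 (1.81), Rpl10l (1.65) and Tex14 (1.5) led the first and Tdrd7 (-2.43), Tdrkh (-1.93) and Tdrd1 (-1.67) the second. In the same pair all 7 of the 2-cell-like genes with enough UMIs were at least 2-fold higher in JupHigh, and the summed level of that list was 185 CPM against 19.5. Other marker lists lay apart as well: in JupHigh against JupLow the summed levels were 3619 against 2187 CPM for ES cell genes, 440 against 1252 for genes of primed cells, 248 against 492 for primitive endoderm and 6.26 against 28.8 for fibroblast genes. A gene without a column counted as 0 in these sums. For 2-cell-like genes, 13 of 14 had a column in JupHigh and 10 of 14 in JupLow, and for fibroblast genes 5 of 9 and 8 of 9. The part of any of these marker lists in the germline counts was not tested.

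Of the 27 repressor genes, 3 were at least 2-fold higher in 2i/LIF than in wild type serum/LIF and 5 lower, beside 14.2% and 18.6% of all genes, with a median log2 ratio of 0.14. The genes named next are those with the largest ratios. Dnmt3l (-3.11), Dnmt3b (-1.89) and Dnmt3a (-1.32), which place new DNA methylation, were lower in 2i/LIF, as were Yaf2 (-2.35), E2f6 (-1.42) and Ehmt2 (-0.92). Zfp42 (1.80), Wdr5 (1.37), Uhrf1 (1.23), Setdb1 (0.89), Cbx3 (0.84) and Hdac2 (0.75) were higher, and so was Tet2 (1.26), while Tet3 (-4.23) was lower. Of the retinoic acid genes, Cdx1 (5.16), Aldh1a2 (1.96), Rara (1.54) and Aldh1a3 (1.41) were higher in 2i/LIF and Meis1 (-2.62), Rdh10 (-1.92), Crabp2 (-1.48) and Rarg (-1.10) lower. Of the primordial germ cell list, Tcl1 (3.09), Kit (2.78), Dppa3 (2.60), Esrrb (2.26), Prdm14 (2.16) and Klf4 (1.83) were higher. This list holds genes that ES cells express too, and all 12 had UMIs in both libraries, so it is not read as a germ cell programme. In JupHigh over JupLow, 1 of the 27 repressor genes was at least 2-fold higher (Zfp42, 1.63) and 3 lower (Yaf2, -1.66, Dnmt3a, -1.51, and E2f6, -1.29), beside 4.76% and 11.1% of all genes. Of 13 retinoic acid genes 2 were higher (Cdx1, 4.67, and Crabp1, 1.11) and 4 lower (Crabp2, -2.88, Nrip1, -1.99, Rdh10, -1.84, and Cyp26a1, -1.48). Of 11 genes of the primordial germ cell list 7 were higher, led by Kit (2.53), Klf4 (2.33) and Tcl1 (1.99), and 0 lower. Beside the retinoic acid and primordial germ cell counts the shares over all genes are again 4.76% and 11.1%. Of the 5 demethylation genes Tet2 (1.46) was higher and Tet3 (-2.24) lower. The intervals of the log2 ratios given here leave out 0.

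Over the 5 single-cell libraries the genes most like Ddx4 in level were Ccn2, Ppp1r9a and Ankrd17, those most like Dazl were Txnl4a, Prdx4 and Sae1, and those most like Hormad1 were Pcif1, Zdhhc12 and Slc26a3 (Pearson r from 0.992 to 0.999 over these 9 pairs). With 5 libraries and few UMIs, these rankings describe these libraries only.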

How the data were processed

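Bulk values are a signal: per the deposited values, gene counts that the authors divided by a factor per library, which is not stated. Whole reads were recovered (100% whole within 0.01), from 637235 to 2583256 per library. The single-cell tables, as deposited, hold UMI counts per gene and barcode without normalization. The submitters' processing notes name FastQC, STAR, featureCounts, DESeq2, Scanpy, mm10 and GRCm38, with no roles. The labels say the bulk experiments were in triplicate and not whether cultures were separate, so p-values measure the spread between these libraries. The second plastic library is replicate 2 by its title, which was followed, and triplicate 3 by its description.

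limma 3.58.1 (R 4.3.3, trend) was fitted on log2(value + 0.5) to the 7878 of 12588 rows that passed edgeR 4.0.16's filterByExpr on recovered reads, with Benjamini-Hochberg adjustment at 0.05. edgeR and DESeq2 1.42.0 on recovered reads, other pseudocounts and filters, thinning and leaving out each library were alternatives. In simulated data with 200 genes changed 4-fold, 190 passed the filter, 98.9% of these were called, and 6% of calls were false. Chi-square per degree of freedom was at least 1.58 for every pair of replicates, so none was a duplicate.

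Cells were barcodes holding 1000 UMIs or more (112 to 2889 per library, 236195 to 8284254 UMIs); no doublet caller was run. Barcodes with 8 or more G at both ends and unnamed gene columns (0.00509% to 0.499% of UMIs) were left out, as was 1 incomplete row of the gel table. No cell barcode was shared between libraries. With 1 library per condition no test was made: intervals are exact Poisson, binomial or conditional binomial, at 95%, for counting error only, and a count of 0 is read against a floor of 3 counts. A gene counted as 2-fold different when it had at least 20 UMIs over both libraries, with 0.5 UMI added, a rule set after the data were seen.

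The members and gene lists were chosen with earlier results of these data known. The genes named from other lists are, per direction and by size, those called in bulk and those with at least 20 UMIs whose single-cell interval leaves out 0, whether or not they reach 2-fold (up to 10 for germline lists in bulk, 5 in each single-cell ratio, 6 for the other lists). Uncalled genes of the bulk lists, the ES cell markers and Chpt1 were named after their values were seen. Also named are the 3 genes most like a member by Pearson r, a result not reported here for Sycp3. All 8 members matched the RefSeq promoter table.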

Additional observations from a re-analysis of the deposited data

How the results depend on the processing

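The count of genes called in bulk ranged from 2188 (DESeq2) to 3158 (edgeR) around 2906 and the count of other germline genes from 8 to 12 around 10. With each library omitted in turn the counts were 2361 to 2833 and 8 to 11; the genes higher in gel numbered 1 to 3 and those lower 6 to 8, the lowest count of higher genes coming without plastic replicate 3. The fold change of Stra8 ranged from -4.26 (without gel replicate 2) to -3.50 (thinned to the shallowest library) over 13 alternatives, since it has no value with at least 10 reads in all 6 libraries, and that of Dazl from -1.07 to -0.80 over 14. Hormad1 ranged from -0.65 to -0.30. These are ranges of a description, since the members were chosen on these values. Brca2, Stk31 and Rpl10l lost their call in at least 1 alternative, and Syce1, Mlh3 and Nanos3 gained one in at least 1. None changed direction. With a replicate block, 2988 genes and 10 other germline genes were called; the deviations of same-numbered gel and plastic libraries correlated at -0.052, 0.016 and 0.024, so the numbers were not taken as pairs.

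Among the single-cell medians of the other germline lists, that of gel over serum/LIF on plastic moved from 0.080 to -0.43 when every deposited barcode was counted; the cause was not tested. TMM factors shift all log2 ratios of 2i/LIF over serum/LIF by 0.25 and those of JupHigh over JupLow by 0.11. The first shift takes Dazl in 2i/LIF over serum/LIF from -0.07 to 0.18 and Hormad1 from 0.46 to 0.72. The interval of Hormad1 in that ratio began at -0.04, so whether it includes equal levels depends on the normalization. Ddx4 ranged from -2.75 to -2.50, Sycp1 from -4.59 to -3.53 and Mael from -3.09 to -2.04 in that ratio over the settings. Depth limits the single-cell values: every member but Hormad1 had at most 43 UMIs in any library.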
